A study of Homo sapiens with 8 samples.

Results

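The enzymes that make serine from glucose carbon and pass its side-chain carbon to folate were followed in LUHMES neurons whose mitochondria had been poisoned for 8 h. The set holds 10 genes, chosen by name from the 62826 genes listed, and all 10 were among the 19785 genes with enough reads to be tested. They are PHGDH, PSAT1 and PSPH of serine synthesis, the mitochondrial folate enzymes SHMT2, MTHFD2, MTHFD2L, MTHFD1L and ALDH1L2, and the cytosolic folate enzymes SHMT1 and MTHFD1. LUHMES is a conditionally immortalised human mesencephalic cell line, unmodified here (genotype WT in the labels), in which tetracycline switches off the immortalising transgene. All cells were differentiated for 6 days with dbcAMP (1 mM), GDNF (2 ng/mL), tetracycline (1 µg/mL) and L-glutamine (2 mM). Treated cells then received antimycin A (25 µM), which blocks respiratory complex III, with oligomycin (10 µM), which blocks the ATP synthase, and vehicle cells received DMSO for the same 8 h. RNA from 4 differentiations per group, numbered 2 to 5, was sequenced, each number being 1 library made from 4 technical replicates. The series describes the differentiations as independent, and all of them come from 1 line, so p-values measure the spread between differentiations of that line.

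Serine synthesis starts from 3-phosphoglycerate, an intermediate of glycolysis. PHGDH oxidises it, PSAT1 transfers an amino group to the product, and PSPH removes the phosphate to give serine. The SHMT enzymes split serine into glycine and a carbon unit carried by tetrahydrofolate. In mitochondria that unit is oxidised by MTHFD2 or MTHFD2L and then released as formate by MTHFD1L or as carbon dioxide by ALDH1L2. In the cytosol MTHFD1 carries out the corresponding steps in a single protein and SHMT1 joins them to serine. The pathway feeds purine, thymidylate and methionine synthesis, and PHGDH, PSAT1, SHMT2 and MTHFD2 are well-known targets of the transcription factor ATF4.

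The libraries held 93.7 to 110 M estimated reads. The neuronal markers were abundant, with a summed level of 4930 to 6221 TPM (a level per unit of transcript length, scaled to the same sum in each library) in vehicle libraries and 4330 to 4525 in treated ones. The 8 dopaminergic markers summed to 353 to 457 TPM in vehicle libraries, with SLC6A3 at 296 to 414 TPM. In treated libraries they summed to 350 to 393 TPM, with SLC6A3 at 307 to 341 TPM. TH, NR4A2 and EN1 also lay above 1 TPM in every library, while DDC, SLC18A2, PITX3 and LMX1B lay below it. The labelled dopaminergic identity is thus only partly borne out by the transcripts. The 8 markers of dividing cells summed to 235 to 362 TPM in vehicle libraries and 165 to 181 in treated ones, and all 8 fell. All 5 microglial markers were below 1 TPM. Astrocyte markers summed to 21.4 to 26.1 TPM in vehicle and 29.97 to 33.0 TPM in treated libraries, with GFAP, AQP4, ALDH1L1 and S100B below 1 TPM. Of the other 2, SLC1A3 rose from 1.74 to 2.32 TPM in vehicle libraries to 14.1 to 15.7 TPM in treated ones (log2 fold change 3.26) and GJA1 fell (-0.40, adjusted p = 9.66e-04). Oligodendrocyte markers summed to 40.2 to 64.6 and 29.2 to 36.6 TPM, and mesenchymal ones to 6.83 to 11.5 and 8.83 to 11.4 TPM. Vehicle differentiation 2 stood apart from the other vehicle libraries for several of these enzymes, and values without it are given beside the results.

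Of the 10 enzymes, 8 were higher and 2 were lower in treated cells at a Benjamini-Hochberg adjusted p under 0.05 by the quasi-likelihood test of edgeR. The background is high, since 57.9% of all genes tested passed: 27.7% of the genes tested were higher and 30.2% were lower. The 2 that fell are the 2 cytosolic folate enzymes, and the 8 that rose are the serine synthesis enzymes and the mitochondrial folate enzymes. The median log2 fold change of the 10, which were chosen with earlier results of these data known, was 2.35, against -0.02 over all genes tested. Of the genes tested, 563 (2.85%, SHMT2 included) had a log2 fold change at or above that of SHMT2, and PHGDH, PSAT1, PSPH, MTHFD2, MTHFD1L and ALDH1L2 stood above it. All 10 had CPM values (reads scaled to a common library total) that did not overlap between the groups, as did 53.4% of the genes tested. RNA was taken from whole cultures, in which fewer cells of a type and less RNA per cell cannot be told apart.

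**Figure D1:**
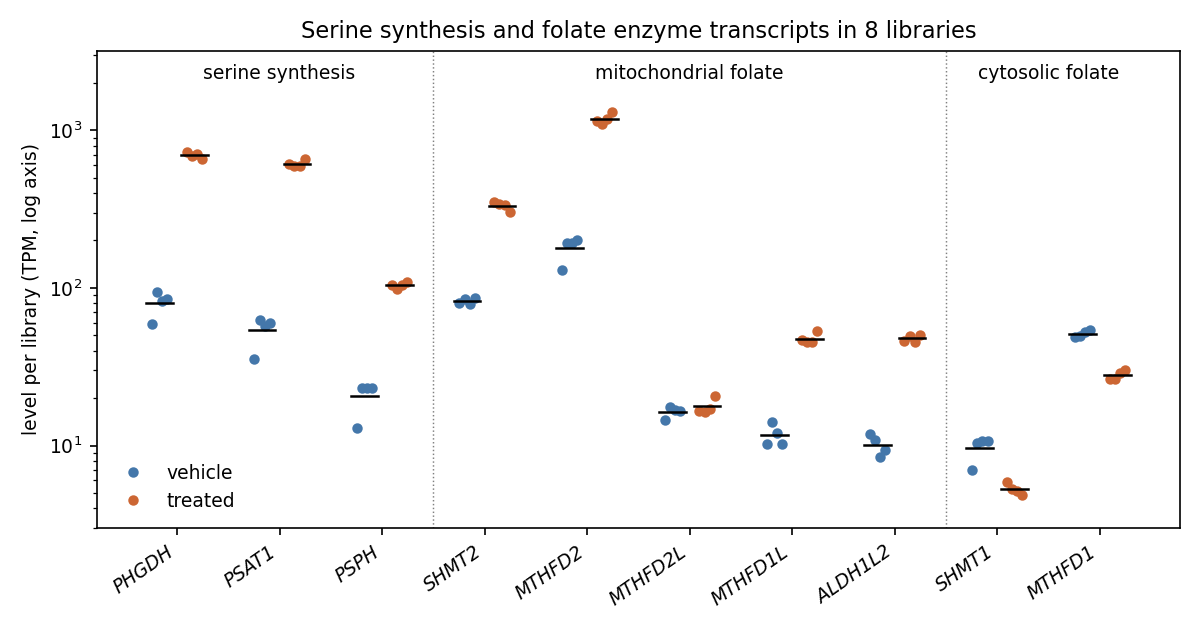
Level of each of the 10 enzyme transcripts in TPM on a log axis, 1 point per library and a bar at the mean of the 4 libraries of a group. Treated points lie far above vehicle points for all serine synthesis and mitochondrial enzymes except MTHFD2L, whose points overlap, and below them for SHMT1 and MTHFD1.

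Summed over the 3 serine synthesis genes, the level was 154 ± 31.9 TPM in vehicle cells and 1416 ± 27.1 TPM in treated cells (mean ± SD, n = 4 here and for all levels that follow). The 5 mitochondrial folate genes summed to 300.04 ± 35.97 TPM in vehicle cells and 1626 ± 74.0 TPM in treated cells. The 2 cytosolic folate genes summed to 60.9 ± 3.88 TPM and 33.3 ± 1.39 TPM. Groups did not overlap in any of these sums.

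PHGDH (ENSG00000092621.13, chromosome 1, 119648411 to 119744226, plus strand, hg38 with GENCODE 29) encodes the first and committed enzyme of serine synthesis. In vehicle differentiations 2, 3, 4 and 5 its level was 59.2, 94.0, 82.8 and 84.6 TPM. In the treated ones it was 726, 689, 709 and 658 TPM. The lowest treated library was thus well above the highest vehicle library, and vehicle differentiation 2 was the lowest of its group. CPM rose from 62.1 ± 8.63 to 598 ± 45.8, a log2 fold change of 3.27 (SE 0.112, adjusted p = 1.83e-08), which is 9.63-fold. Without vehicle differentiation 2 the log2 fold change was 3.17.

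PSAT1 (ENSG00000135069.14, chromosome 9, 78297143 to 78330093, plus strand) encodes the aminotransferase of the middle step and rose the most of the 10. The vehicle libraries held 35.6, 62.2, 57.0 and 60.1 TPM and its treated libraries 614, 593, 597 and 661 TPM. The groups lay far apart, and vehicle differentiation 2 was again lowest. CPM rose from 57.2 ± 5.61 to 687 ± 33.6, a log2 fold change of 3.59 (SE 0.0878, adjusted p = 1.75e-09), and the value without vehicle differentiation 2 was 3.52. Among all genes tested it ranked 162nd by fold change upwards.

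PSPH (ENSG00000146733.14, chromosome 7, 56011051 to 56051604, minus strand) encodes the phosphatase of the last step. PSPH stood at 12.9, 23.2, 23.1 and 23.1 TPM in the vehicle libraries and at 105, 99.1, 105 and 109 TPM in the treated ones. Except for vehicle differentiation 2 the libraries of a group were close together. CPM rose from 16.4 ± 2.31 to 84.7 ± 2.37, a log2 fold change of 2.37 (SE 0.102, adjusted p = 7.71e-08), or 2.27 without that library. Fewer PSPH than PHGDH or PSAT1 transcripts per unit length were therefore present in both groups, and its change was smaller.

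SHMT2 (ENSG00000182199.11, chromosome 12, 57229327 to 57234935, plus strand) encodes the mitochondrial enzyme that takes the carbon unit from serine. Its vehicle libraries held 79.7, 85.6, 79.0 and 85.7 TPM and its treated libraries 352, 342, 334 and 304 TPM. Treated differentiation 5 was the lowest of its group and still far above every vehicle library. CPM rose from 75.7 ± 6.56 to 315 ± 28.2, a log2 fold change of 2.06 (SE 0.0895, adjusted p = 7.81e-08), or 1.99 without vehicle differentiation 2. Its CPM in vehicle differentiation 2, 65.8, was below the 78.6 to 79.2 of the others, while its TPM there was not. The deposited effective length of SHMT2, on which its TPM depends, was 1234 bases in that library and 1839 to 1935 bases in the other vehicle libraries. This was not particular to SHMT2. The length there was 1264 against 1494 to 1529 bases for PHGDH and 2154 against 2789 to 2814 for MTHFD1, but 2061 against 1985 to 1993 for PSAT1.

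MTHFD2 (ENSG00000065911.13, chromosome 2, 74198562 to 74217565, plus strand) encodes the mitochondrial dehydrogenase and cyclohydrolase, best known from embryonic and proliferating cells. Summed over all its transcripts, coding or not, it was the most abundant of the 10 in both groups. Vehicle libraries held 131, 192, 194 and 202 TPM and its treated libraries 1147, 1099, 1173 and 1301 TPM. No library of one group came near the other, and vehicle differentiation 2 was the lowest. CPM rose from 149 ± 11.4 to 1016 ± 69.0, a log2 fold change of 2.77 (SE 0.0818, adjusted p = 5.87e-09), or 2.72 without that library.

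MTHFD2L (ENSG00000163738.19, chromosome 4, 74114174 to 74303099, plus strand) encodes the second mitochondrial enzyme of that step, the form known from adult tissues. Its vehicle libraries held 14.6, 17.5, 16.8 and 16.5 TPM and its treated libraries 16.6, 16.4, 17.1 and 20.6 TPM. The TPM values overlap, and only treated differentiation 5 lay above all vehicle libraries. In CPM, where the groups did not overlap, it rose from 15.2 ± 0.822 to 18.0 ± 0.964, a log2 fold change of 0.24 (SE 0.0713, adjusted p = 0.0142), or 0.28 without vehicle differentiation 2. This is the smallest change of the 10. It did not pass with scaling by library totals alone (log2 fold change 0.15, adjusted p = 0.0978) or with an offset for effective length (0.17, adjusted p = 0.0953), and the authors' deposited table gives 0.18 with a false discovery rate of 0.148.

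MTHFD1L (ENSG00000120254.16, chromosome 6, 150865549 to 151101887, plus strand) encodes the mitochondrial formate-releasing synthetase. Levels in vehicle cells were 10.2, 14.1, 12.1 and 10.2 TPM and in treated cells 46.9, 45.2, 45.6 and 52.9 TPM. The groups were widely separated. CPM rose from 15.2 ± 1.37 to 79.0 ± 2.33, a log2 fold change of 2.38 (SE 0.0767, adjusted p = 1.16e-08), the same value as without vehicle differentiation 2.

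ALDH1L2 (ENSG00000136010.14, chromosome 12, 105019784 to 105084577, minus strand) encodes the mitochondrial dehydrogenase that oxidises formyl-tetrahydrofolate to carbon dioxide with formation of NADPH. Its vehicle libraries held 11.8, 10.9, 8.41 and 9.41 TPM and its treated libraries 45.7, 49.6, 45.3 and 50.4 TPM. Vehicle differentiation 2 was here the highest of its group, unlike for the serine synthesis genes. CPM rose from 33.6 ± 8.46 to 168 ± 5.72, a log2 fold change of 2.33 (SE 0.150, adjusted p = 9.25e-07), or 2.51 without that library. Its cytosolic counterpart ALDH1L1 had 16 to 36 reads per library and did not pass the test (log2 fold change -0.17, SE 0.258, adjusted p = 0.589).

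SHMT1 (ENSG00000176974.21, chromosome 17, 18327860 to 18363563, minus strand) encodes the cytosolic counterpart of SHMT2. Levels in vehicle cells were 6.98, 10.4, 10.6 and 10.7 TPM and in treated cells 5.87, 5.27, 5.17 and 4.84 TPM. Every treated library was below every vehicle library, with vehicle differentiation 2 the nearest to them. CPM fell from 10.3 ± 0.892 to 5.91 ± 0.555, a log2 fold change of -0.81 (SE 0.0976, adjusted p = 6.03e-05), or -0.86 without that library. It was the least abundant of the 10 in both groups.

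MTHFD1 (ENSG00000100714.18, chromosome 14, 64388031 to 64463457, plus strand) encodes the trifunctional cytosolic enzyme. Its vehicle libraries held 49.0, 49.3, 52.7 and 53.8 TPM and its treated libraries 26.5, 26.5, 28.8 and 29.99 TPM. The groups did not overlap, and the libraries of each group were close together. CPM fell from 72.6 ± 3.18 to 46.6 ± 2.13, a log2 fold change of -0.64 (SE 0.0617, adjusted p = 1.34e-05), or -0.66 without vehicle differentiation 2. The markers of dividing cells, which fell in the same libraries, moved with SHMT1 and MTHFD1, and their part in this result was not tested.

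**Figure D2:**
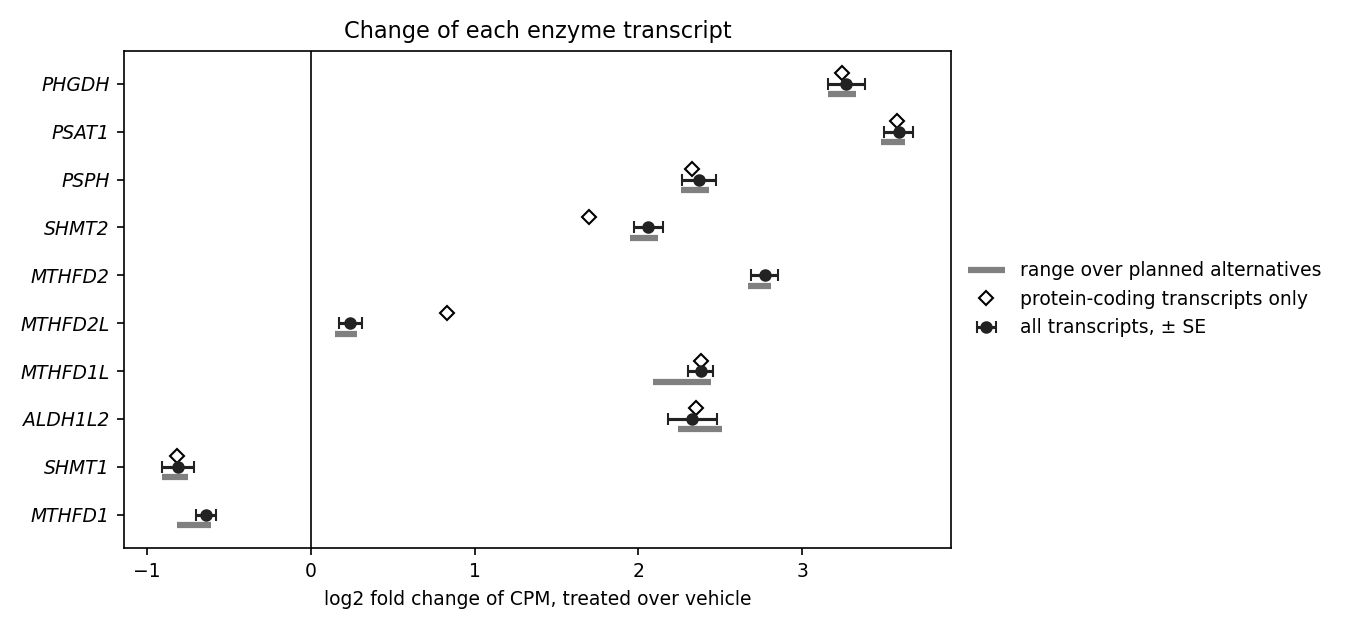
Log2 fold change of CPM, treated over vehicle, for each enzyme: filled points with bars of 1 SE are the edgeR estimates from all transcripts of a gene, grey bars span the other scalings, filters, tests and left-out libraries and open diamonds count protein-coding transcripts only. The points of PHGDH and PSAT1 lie above 3, those of SHMT1 and MTHFD1 lie below 0, and the diamonds leave the grey bars for SHMT2 (1.70) and MTHFD2L (0.83).

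The order of levels per unit length differed between the groups. In vehicle cells MTHFD2 came first, followed by SHMT2, PHGDH, PSAT1 and MTHFD1, and each of these last 4 overlapped its neighbour in the order. PSPH and MTHFD2L followed and overlapped each other, and MTHFD1L, ALDH1L2 and SHMT1 came last, each overlapping the next. In treated cells the order was MTHFD2, PHGDH, PSAT1, SHMT2, PSPH, ALDH1L2, MTHFD1L, MTHFD1, MTHFD2L and SHMT1. There only PHGDH with PSAT1 and ALDH1L2 with MTHFD1L overlapped their neighbours. MTHFD1 thus moved down the order.

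Mitochondrial and cytosolic enzymes of the same step were compared as a ratio within each library, computed on TPM + 0.1. SHMT2 stood to SHMT1 at 11.3, 8.14, 7.36 and 7.92 in the vehicle libraries and at 59.0, 63.7, 63.4 and 61.5 in the treated ones. The ratio was thus far higher in every treated library, with a mean log2 difference of 2.86, or 7.24-fold (log2 difference 2.99 without vehicle differentiation 2). MTHFD2 stood to MTHFD1 at 2.66, 3.89, 3.68 and 3.74 in vehicle cells and at 43.0, 41.3, 40.6 and 43.2 in treated cells, a log2 difference of 3.60, or 3.48 without vehicle differentiation 2. This was the widest shift of the 6 ratios, and it combines a rise of MTHFD2 with a fall of MTHFD1.

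MTHFD1L stood to MTHFD1 at 0.209, 0.288, 0.231 and 0.191 in vehicle cells and at 1.76, 1.70, 1.58 and 1.76 in treated cells, a log2 difference of 2.91. The cytosolic transcript was therefore the more abundant of this pair in vehicle cells and the mitochondrial one in treated cells. MTHFD2L stood to MTHFD1 at 0.299 to 0.356 in vehicle cells and at 0.593 to 0.690 in treated cells, a log2 difference of 0.98, and MTHFD1 remained the more abundant in every library. MTHFD2L values in TPM overlapped between the groups, while MTHFD1 went from 51.2 ± 2.43 to 28.0 ± 1.72 TPM. The shift of this ratio is thus mainly the fall of MTHFD1. The ratio of the 2 mitochondrial enzymes MTHFD2 and MTHFD2L was 8.91 to 12.2 in vehicle cells and 62.7 to 68.5 in treated cells, a log2 difference of 2.62. ALDH1L2 stood to ALDH1L1 at 21.5 to 60.7 in vehicle cells and at 180 to 234 in treated cells, a log2 difference of 2.45, where ALDH1L1 was so scarce that the added 0.1 weighs on the value.

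None of the 6 ratios overlapped between the groups. For each, an exact permutation test (two-sided, all 70 ways to divide the 8 libraries) gave p = 0.0286, the smallest it can give, and the value adjusted over the 6 ratios was the same. The ratios share members, so they are not independent of each other.

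**Figure D3:**
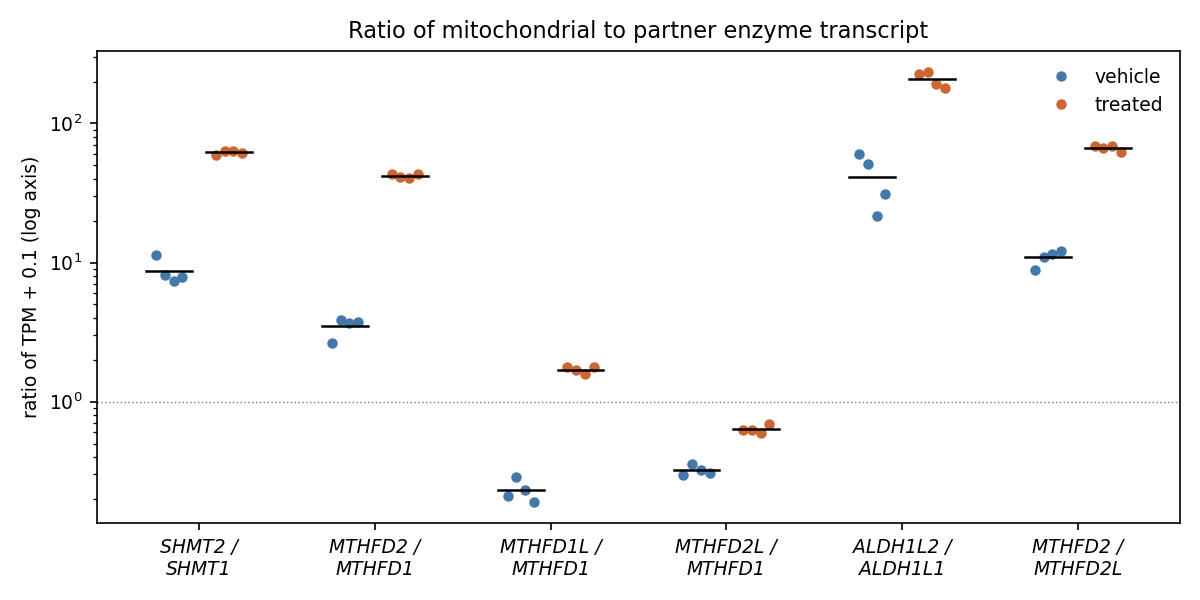
Ratio of TPM + 0.1 between the transcripts of paired enzymes on a log axis, 1 point per library and a bar at the mean of each group of 4. All treated points lie above all vehicle points, and MTHFD1L over MTHFD1 crosses the dotted line of equal level.

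The deposited transcript tables were used to ask which transcripts of each gene carried the reads. A test of transcript usage (diffSpliceDGE of edgeR with Simes p-values per gene) passed for 3 of the 10 genes, PHGDH, PSPH and SHMT2, while 9.34% of the 11746 genes tested passed. The estimates divide reads among overlapping transcripts, and the uncertainty of that division is not part of the test. For MTHFD1 and MTHFD2 the transcripts that could be assigned to the gene carried only 11.4 to 34.4% and 50.02 to 69.4% of its reads, so their usage is not described.

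SHMT2 has 2 annotated starts of translation that matter here. Its coding start is shown because the SHMT2 transcripts whose usage passed the test use the start in exon 2. Other transcripts that use this start did not pass. The line gives the first 66 coding bases of SHMT2-201, from hg38 exon 1 (chr12:57229779-57229811) and exon 2 (chr12:57230803-57230835), plus strand, with both start codons in capitals.
SHMT2-201 coding start: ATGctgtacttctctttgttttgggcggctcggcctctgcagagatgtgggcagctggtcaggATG
The first ATG opens the 504 codons of SHMT2-201, and the second, in exon 2, opens the 483 codons of SHMT2-203, which begins 1033 bases further downstream with another first exon. The longer protein is known to carry a mitochondrial targeting sequence at its amino terminus, and a shorter form without it is known from the cytosol and nucleus.

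SHMT2-203 carried 0.530, 0.477, 0.0821 and 0.373% of the gene's reads in vehicle cells and 10.1, 10.3, 10.4 and 13.4% in treated cells. It was scarce in every vehicle library, with 6.64 to 41.6 reads, and held 3030 to 3531 reads in treated ones. Its level rose from 0.254 ± 0.135 to 31.3 ± 2.86 TPM, and its usage relative to the other SHMT2 transcripts rose by 3.42 on the log2 scale (adjusted p = 1.83e-07). SHMT2-217, a transcript annotated for nonsense-mediated decay that begins near the same place, went from 1.05 ± 0.435% to 9.75 ± 2.28% of reads (usage 2.20, adjusted p = 9.29e-04). These 2 transcripts, and those of other genes below that are not the most abundant of their gene, were named after their values were seen.

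SHMT2-201 remained the most abundant transcript in both groups. Its share was 63.7, 74.8, 83.9 and 75.4% in vehicle cells and 50.03, 47.5, 50.6 and 47.3% in treated cells, while its level went from 53.4 ± 14.4 to 137 ± 10.4 TPM. The shares do not overlap, but its usage change did not pass the test (-0.41, adjusted p = 0.901). Added over transcripts, the 6 that use the upstream start codon held 76.4 ± 9.10% of reads in vehicle cells and 52.7 ± 1.75% in treated cells. The 15 that use the start codon of exon 2 held 15.7 ± 7.31% (6.81 to 24.7%) in vehicle cells and 30.7 ± 2.45% (29.2 to 34.3%) in treated cells. These 15 do not all encode the 483-codon form. SHMT2-217 has 65 codons. SHMT2-216 has 215 and begins at the same base as SHMT2-203, 57230360. It held 20.4% in vehicle differentiation 2, 0.234 to 1.18% in the other vehicle libraries and 0.592 to 1.57% in treated cells. Transcripts that begin at this base were thus not scarce in every vehicle library. SHMT2-202, with 483 codons, held 0 to 12.6% in vehicle cells and 2.70 to 4.10% in treated cells. Transcripts without an annotated coding start held 7.79 ± 1.94% and 16.6 ± 1.21%, and a single retained-intron transcript made up 4.87 to 7.29% and 10.6 to 12.7%. Counting protein-coding transcripts alone, SHMT2 rose by a log2 fold change of 1.70 rather than 2.06.

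PSPH changed its most abundant transcript. PSPH-202 held 54.9, 53.5, 63.1 and 64.4% of reads in vehicle cells and 22.6, 22.6, 26.3 and 23.5% in treated cells (usage -0.92, adjusted p = 5.24e-03). PSPH-201 held 29.8, 33.3, 21.8 and 22.2% in vehicle cells and 62.99, 63.7, 57.9 and 61.1% in treated cells (usage 0.83, adjusted p = 2.17e-03). Every library of a group thus had the same leading transcript. Both begin at position 56051604 of chromosome 7 and encode the same 225 codons. Among their first 3 exons they differ in exon 2, in the untranslated leader. It runs over 56033961 to 56034106 in PSPH-201 and to 56034154 in PSPH-202, 48 bases longer. The deposited lengths, 1974 bases for PSPH-201 and 2178 for PSPH-202, lie further apart than that, and the remaining difference was not located.

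In PHGDH the main transcript was the same in both groups, PHGDH-208 with 84.0 ± 7.95% and 85.9 ± 1.28% of reads. Of the 3 PHGDH transcripts that passed, none held over 0.4% of the gene's reads in any treated library, and PHGDH-203, whose usage was lower in treated cells (-2.06, adjusted p = 2.86e-03), held 0.156 to 5.60% in vehicle libraries. The strongest, PHGDH-211, had 0 reads in all vehicle libraries and 84.9 to 204 in treated ones, so it entered the test only through the treated group. Without any 1 treated library it no longer entered, and PHGDH did not pass (adjusted p = 0.109 to 0.161).

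In MTHFD2L a non-coding transcript, MTHFD2L-208, held 59.6, 70.01, 66.4 and 67.4% of reads in vehicle cells and 51.2, 50.2, 49.2 and 45.4% in treated cells. These shares do not overlap, although the usage test for the gene did not pass (adjusted p = 0.396). Counting protein-coding transcripts alone, MTHFD2L rose by a log2 fold change of 0.83 (adjusted p = 3.87e-04) rather than 0.24, a comparison added after the data were seen. For the other 6 genes counted this way (PHGDH, PSAT1, PSPH, MTHFD1L, ALDH1L2 and SHMT1) the value stayed within 0.05 of the first.

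**Figure D4:**
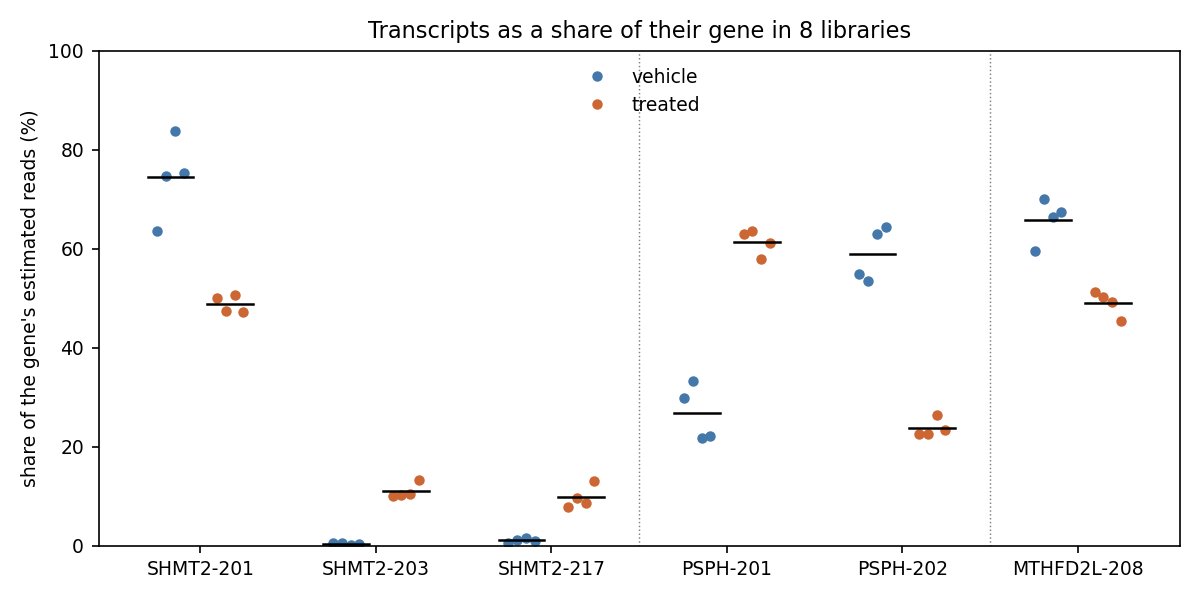
Share of a gene's estimated reads held by single transcripts of SHMT2, PSPH and MTHFD2L, 1 point per library and a bar at the mean of each group of 4. SHMT2-203 and SHMT2-217 lie near 0 in vehicle cells, and PSPH-201 and PSPH-202 exchange places.

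Promoter sequence was at hand for 7 of the 10 genes in the RefSeq table of GRCh38.p14, as windows from 250 bases before to 50 after a transcript start. Each window was searched on both strands for CCAAT (the CCAAT box), CACGTG (the E-box bound by MYC and its relatives) and TGATGNAA (the composite element bound by ATF4 with C/EBP proteins). These motifs were chosen after the windows had been read. The stretches below are those before the first annotated exon in PSAT1 and MTHFD2, which rose, and in SHMT1, which fell, 5′ to 3′ on the strand of the gene, with each CCAAT, or ATTGG where it lies on the other strand, in capitals.
PSAT1, plus strand of chr9:78296875-78297124: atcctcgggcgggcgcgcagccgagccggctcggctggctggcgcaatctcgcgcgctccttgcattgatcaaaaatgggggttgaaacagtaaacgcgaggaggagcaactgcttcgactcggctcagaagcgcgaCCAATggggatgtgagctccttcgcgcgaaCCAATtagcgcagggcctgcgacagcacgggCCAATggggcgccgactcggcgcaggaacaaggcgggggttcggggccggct
MTHFD2, plus strand of chr2:74198365-74198561: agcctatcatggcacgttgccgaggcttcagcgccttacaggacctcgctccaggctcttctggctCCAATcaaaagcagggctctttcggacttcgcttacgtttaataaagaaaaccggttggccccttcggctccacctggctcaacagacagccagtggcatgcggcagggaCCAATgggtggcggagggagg
SHMT1, minus strand of chr17:18363564-18363800: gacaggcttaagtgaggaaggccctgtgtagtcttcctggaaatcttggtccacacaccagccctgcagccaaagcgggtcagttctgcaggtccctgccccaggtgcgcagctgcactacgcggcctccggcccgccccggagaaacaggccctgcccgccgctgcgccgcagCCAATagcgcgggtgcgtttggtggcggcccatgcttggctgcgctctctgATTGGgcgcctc
PSAT1 had 3 matches, MTHFD2 had 2 and SHMT1 had 2, 1 of them on the other strand. In all, 6 of the 7 genes with a window held CCAAT, including SHMT1 and MTHFD1, which fell, and MTHFD2L held none. Over all 35116 windows 34.6% held it, and 42.1% of protein-coding genes had at least 1 window with it.

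TGATGNAA was found in 1 of the 7 genes, MTHFD1L, against 3.6% of protein-coding genes and 3.62% of all windows. CACGTG was found in 2 of the 7, MTHFD1 and MTHFD1L, against 10.9% of protein-coding genes and 7.26% of all windows. The MTHFD1L match and the PHGDH CCAAT lie inside annotated exons and are given with their flanks only, the matched letters in capitals.
MTHFD1L, plus strand of chr6:150866346-150866375: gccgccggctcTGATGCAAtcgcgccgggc
PHGDH, plus strand of chr1:119711851-119711880: gagtatttccgtCCAATcaaaaggagactg
The MTHFD1L match spans 150866357 to 150866364 and overlaps an annotated start codon of MTHFD1L at 150866359. These matches describe the letters of the windows, and no binding was measured.

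Around the 10 enzymes, lists of related genes, also chosen with earlier results known, were read against the same background of 27.7% higher and 30.2% lower. Of 5 tested genes of folate uptake and retention 4 fell and none rose, with a median log2 fold change of -0.96. The plasma membrane folate carrier SLC46A1 fell from 19.7 ± 1.62 to 8.36 ± 0.915 CPM (log2 fold change -1.23, adjusted p = 3.63e-06). SLC25A32, the mitochondrial folate carrier, fell from 40.7 ± 3.18 to 20.2 ± 0.924 CPM (-1.01, adjusted p = 2.35e-06), while the mitochondrial enzymes that use its cargo rose. FOLR1 and FOLR2 had at most 1 read in any library and were not tested.

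Of 10 further genes of the folate cycle 4 fell, 1 rose and 5 did not pass, with a median of -0.21, and these counts are near the shares over all genes tested. DHFR2, a paralogue of dihydrofolate reductase, fell from 12.2 ± 0.562 to 3.93 ± 0.106 CPM (-1.63, adjusted p = 9.79e-08). MTR, the methionine synthase, fell by 0.58 on the log2 scale, and MTRR, its reductase, was 0.29 higher (adjusted p = 0.0167), a call lost with an offset for effective length (adjusted p = 0.312) and without treated differentiation 3 (adjusted p = 0.0528), vehicle differentiation 3 (0.0543) or vehicle differentiation 5 (0.0542). All 3 tested genes of glycine cleavage that passed, GLDC, GCSH and DLD, fell, of 4 tested. GLDC, the decarboxylase of that system, went from 68.7 ± 7.05 to 24.7 ± 0.715 CPM (-1.47, adjusted p = 3.30e-07). Of 8 genes of purine synthesis 6 fell and none rose, led by PRPS2 (-0.87) and PFAS (-0.66). PRPS2 was scarce, at 2.01 ± 0.126 CPM in vehicle cells. Its isoenzyme PRPS1, at 54.7 ± 4.00 CPM there, did not pass (0.04, adjusted p = 0.667). The fall of the dividing-cell markers stands beside these lists too, and its part was not tested.

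Among genes that bring in serine, of 8 tested serine transporters 5 rose and 2 fell, with a median of 0.89. SLC1A4, a neutral amino acid transporter that takes up serine, rose from 49.4 ± 3.46 to 314 ± 12.2 CPM (2.67, adjusted p = 2.52e-09). SLC38A2 rose from 370 ± 16.8 to 1053 ± 72.2 CPM (1.51), and the mitochondrial sideroflexins SFXN2 and SFXN3 fell by 0.83 and 0.37 on the log2 scale. SFXN2 was scarce, at 5.07 ± 0.338 CPM in vehicle cells. SFXN1, the most abundant sideroflexin of the list, stood at 73.7 ± 4.29 CPM in vehicle and 73.6 ± 3.17 CPM in treated cells and did not pass (adjusted p = 0.984). In the methionine cycle and transsulfuration list 3 of 8 tested rose and none fell, with a median of 0.17. CBS, which joins serine to homocysteine, rose from 26.4 ± 0.824 to 109 ± 11.8 CPM (2.05, adjusted p = 6.12e-08), and CTH, which releases cysteine from the product, rose from 6.00 ± 0.298 to 53.3 ± 2.54 CPM (3.15, adjusted p = 1.16e-09).

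Of 12 tested genes of serine and glycine use 4 rose, 2 fell and 6 did not pass, with a median of 0.16, where 27.7% of all genes tested were higher and 30.2% lower. SARS1, the cytosolic seryl-tRNA synthetase, rose from 165 ± 13.5 to 420 ± 9.70 CPM (1.34, adjusted p = 2.12e-07). The 2 subunits of serine palmitoyltransferase diverged, SPTLC1 being 0.47 higher (adjusted p = 7.11e-05) and SPTLC2 0.60 lower on the log2 scale (-0.60, adjusted p = 2.27e-05). The serine racemase SRR fell by 0.36. Upstream, of 5 glycolytic genes around 3-phosphoglycerate 1 rose and 1 fell, with a median of 0.02. GAPDH went from 1505 ± 124 to 1836 ± 91.0 CPM (0.29, adjusted p = 8.16e-03, a call lost with scaling by library totals alone at adjusted p = 0.108), and BPGM, which makes and removes 2,3-bisphosphoglycerate, fell by 0.68 on the log2 scale.

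Of 11 regulators linked to serine genes 8 rose and 2 fell, with a median of 1.64. ATF4 itself, a factor known for control at translation, rose from 252 ± 31.4 to 821 ± 41.3 CPM (1.70), a value named after it was seen. CEBPB rose from 0.695 ± 0.156 to 72.8 ± 16.3 CPM (6.70, adjusted p = 1.43e-08) and ATF3 from 7.94 ± 0.952 to 175 ± 8.16 CPM (4.46, adjusted p = 8.20e-10). The 2 that fell were MYC, from 118 ± 20.7 to 45.2 ± 4.91 CPM (-1.39, adjusted p = 9.82e-06), and MYCN (-1.34, adjusted p = 1.83e-05).

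**Figure D5:**
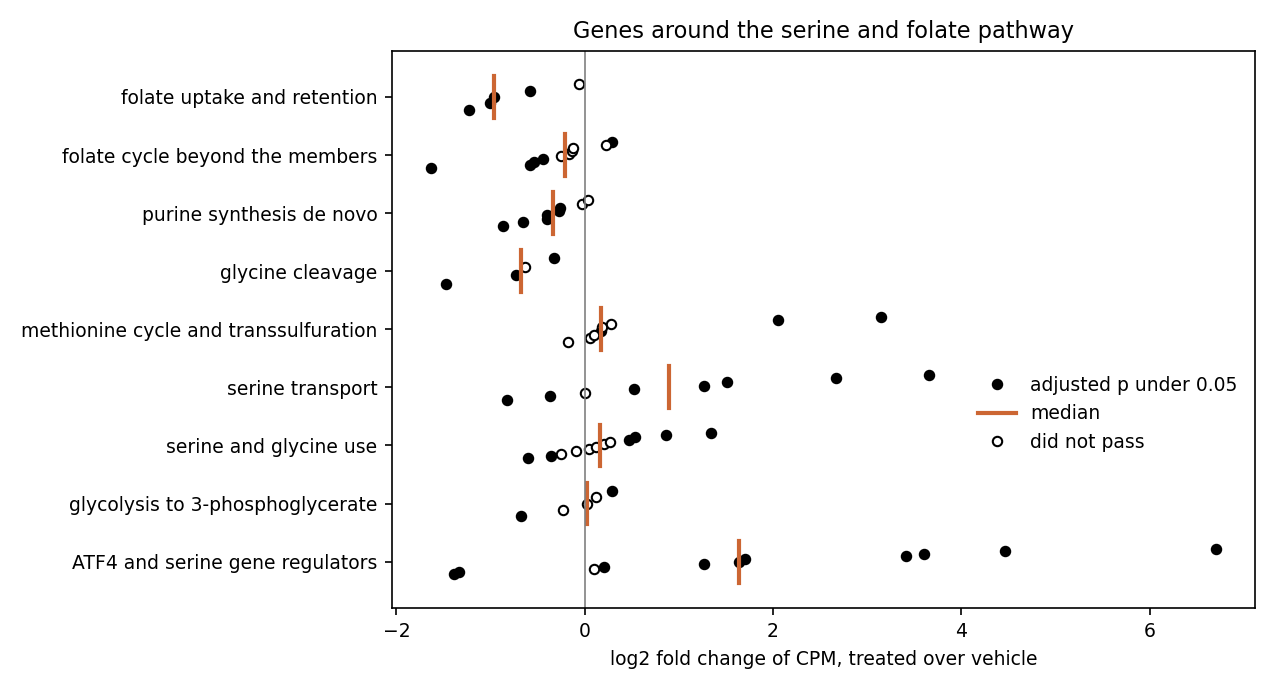
Log2 fold change of CPM, treated over vehicle, for the tested genes of 9 lists around the pathway, 1 point per gene, filled where the adjusted p was under 0.05, with a bar at the median of each list. The medians of folate uptake (-0.96) and glycine cleavage (-0.68) lie below 0, and those of serine transport (0.89) and the regulators (1.64) lie above it.

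Genes whose profile over the 8 libraries was nearest to an enzyme were found by the root-mean-square distance of log2 CPM after each gene was centred on its mean in the vehicle libraries, among 11398 other genes with a mean of at least 5 CPM. Nearest to PHGDH were CDKN1A (0.133), XBP1 (0.142) and FRK (0.158), with log2 fold changes of 3.36, 3.22 and 3.28 against 3.27. Nearest to SHMT2 were EIF4EBP1 (0.0490), CBS (0.0722) and MAFG (0.0810). Nearest to MTHFD2 were GCLM (0.0891), SLC1A4 (0.126) and TSC22D3 (0.130). With a treated and a vehicle group, the distance depends mainly on how alike the changes are in size, so it does not show shared regulation. For comparison, PSAT1 lay 0.2495 from PHGDH, PSPH lay 0.248 from SHMT2 and PSPH lay 0.292 from MTHFD2. Of these 9 genes CBS and SLC1A4 also belong to the lists above.

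Reads of close copies could in principle be counted with the enzymes. The tables list 14 genes named as copies of PSAT1, PSPH, SHMT1, MTHFD1 and MTHFD2 (the symbol followed by P and a number), and none had over 9 reads in any library. Another 16 genes overlap the enzymes, and 9 of them were tested. No source used here gives the strand setting of the counting, so reads of opposite-strand neighbours cannot be told apart from those of the enzymes with certainty. SMCR8, opposite SHMT1, held 4446 to 7733 reads, more than SHMT1 with 492 to 1233, and was higher in treated cells (0.46, adjusted p = 2.67e-04) where SHMT1 was lower. ZBTB25, opposite MTHFD1, was lower (-0.92), and SLC4A5, opposite MTHFD2, was higher (1.03) at 6.54 ± 0.83 CPM in vehicle cells against 149 ± 11.4 for MTHFD2. NOPCHAP1, opposite ALDH1L2, held 2497 to 5776 reads and 40.4 ± 6.81 CPM in vehicle cells, above the 33.6 ± 8.46 CPM of ALDH1L2 there, and 36.3 ± 8.95 CPM in treated cells, and it did not pass the test (-0.15, adjusted p = 0.476). NDUFA4L2, opposite SHMT2, and the antisense gene opposite MTHFD2L reached at most 176 and 48 reads.

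The authors' deposited table lists all 10 enzymes and gives the same directions, with 9 past a false discovery rate of 0.05. MTHFD2L is the exception given above. Its log2 fold changes differ from those of the edgeR test by at most 0.09, the largest being SHMT1 with -0.90 in the authors' deposited table.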

How the data were processed

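RNA sequencing libraries of 4 treated and 4 vehicle differentiations were used. The authors deposited gene and transcript tables of estimated counts, effective lengths and TPM per library, per the file headers. No source used here gives the quantifier, its annotation or its strand setting. Per the submitters' processing notes, HISAT2, SAMtools, StringTie and hg38 were used, with no version or role stated. For coding genes the authors also deposited a signal per library in an unnamed unit, with the log2 fold change, the p-value and the false discovery rate of their own test.

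Estimated counts were rounded, filtered with filterByExpr, scaled by TMM and tested over all genes with edgeR 4.0.16 in R 4.3.3 by the quasi-likelihood F-test, treated against vehicle with no covariate and Benjamini-Hochberg adjustment. The SE is the size of the log2 fold change over the square root of F. CPM uses the TMM-scaled library sizes, and log2 CPM a prior count of 2. Transcript usage was tested where 10 or more reads were present in 4 or more libraries. Isoenzyme ratios used a pseudocount of 0.1 TPM. The procedures were tested on simulated data. Symbols came from a table that matched 62128 of 62826 gene IDs exactly (62684 have a symbol), and 202856 of 253512 transcripts belong to a GENCODE 29 gene. Alternatives were DESeq2 1.42.0, other scalings and filters, a replicate block and leaving out each library.

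The enzymes, gene lists and markers were chosen with earlier results of these data known. The genes named are the 10 enzymes, ALDH1L1, up to 2 rising and 2 falling genes per list by smallest adjusted p, copies and overlapping genes, the 3 nearest profiles of PHGDH, SHMT2 and MTHFD2, and the most abundant transcripts of genes whose usage passed, and other names are given as chosen afterwards. DLD, PRPS1 and SFXN1 are such names.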

Additional observations from a re-analysis of the deposited data

Results flagged for a closer look

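Of 42 groups of 4 libraries examined (CPM of the enzymes, the isoenzyme ratios and the shares of 5 transcripts), 5 had 1 library far from the other 3 by Dixon's criterion. Chance flags about 1 in 20 groups, and the groups are not independent since they come from the same libraries. In 4 of the 5 the library was vehicle differentiation 2. PSPH stood at 12.95 CPM there against 17.2 to 17.7 in the other vehicle libraries. SHMT2 stood at 65.8 CPM against 78.6 to 79.2, and MTHFD2 at 131.7 CPM against 153 to 155. The ratio of MTHFD2 to MTHFD1 was 2.66 there against 3.68 to 3.89. In the same library PHGDH-227 held 10.2% and SHMT2-216 held 20.4% of the reads of their genes. The fifth was SHMT2-203, which held 13.4% of SHMT2 reads in treated differentiation 5 against 10.1 to 10.4% in the other treated libraries.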

How the results depend on the processing

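For 9 of the 10 enzymes every one of up to 14 alternatives kept the direction and the call, and 136 of 138 runs over all 10 did. MTHFD2L lost its call with scaling by library totals alone (0.15) and with an offset for effective length (0.17), and leaving out 1 library gave 0.21 to 0.28 (adjusted p = 3.47e-03 to 0.0482). The 6 isoenzyme differences kept their sign under all alternatives, and with CPM in place of TPM or pseudocounts of 0.01 or 1 they kept p = 0.0286 by the exact permutation test. Scaling by library totals alone moved the median log2 fold change of all genes by -0.10, and 37.9% of calls were then higher in treated cells, against 47.8%.

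Differentiation numbers are shared by the groups, but same-numbered libraries did not deviate together (correlations -0.0797, 0.0316, 0.0252 and -0.00136), so they were not treated as pairs. With the number as a replicate block 10764 genes passed against 11461, and MTHFD2L kept 0.24 (adjusted p = 0.0468). With 4 pairs an exact sign-flip test cannot go below 0.125, so with the block none of the ratio differences could pass: 2.86 for SHMT2/SHMT1, 3.60 for MTHFD2/MTHFD1, 2.91 for MTHFD1L/MTHFD1, 0.98 for MTHFD2L/MTHFD1, 2.62 for MTHFD2/MTHFD2L and 2.45 for ALDH1L2/ALDH1L1. The block left 796 genes with changed transcript usage against 1097.

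A gene-level F-test called 3068 genes for transcript usage, and leaving out 1 library gave 619 to 1594 (without treated differentiations 2 to 5: 637, 630, 619 and 692). SHMT2 and PSPH passed in every such run (adjusted p up to 4.09e-04 and 0.0417), while PSPH-202 itself was lost without treated differentiation 2 (-0.90, adjusted p = 0.0622) or 3 (-0.90, adjusted p = 0.0631). Depth limits ALDH1L1 (16 to 36 reads) and SHMT2-203 in vehicle cells.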
